A study of Mus musculus with 6 samples.

Results

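The genes described here mark the thick ascending limb of the loop of Henle and the distal convoluted tubule that follows it. They are Umod, Slc12a1, Slc12a3, Kcnj1, Bsnd, Cldn16, Trpm6 and Pvalb, 8 of the 18193 genes measured. They were chosen by name, and every probe set annotated to exactly 1 of them was taken, which gave 13 of the 45101 probe sets on the array. Each gene is represented by its probe set with the highest mean over all arrays, and the other probe sets are given beside it.

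Expression was measured on Affymetrix arrays in 3 mouse kidney samples labelled Fh1 knockout and 3 labelled wild-type littermate, 1 array per sample. Fh1 encodes fumarate hydratase, which converts fumarate to malate in the tricarboxylic acid cycle. The knockout tissue was cystic epithelium and the wild-type tissue came from sex-matched animals without disease, both macro-dissected, so loss of Fh1 and cystic disease cannot be told apart in this comparison. The Fh1 allele, the cells in which it was deleted, and the age, sex and strain of the mice are not stated in the labels, nor is it stated whether each array stands for a separate animal. P-values therefore measure the spread between these samples, which may be technical.

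Values are RMA (robust multi-array average) expression values on the log2 scale, so a difference of 1 is a 2-fold difference. Fh1 itself averaged 12.32 ± 0.10 (SD, n = 3) in the wild-type and, with no overlap, 11.58 ± 0.04 (SD, n = 3) in the knockout group. Across genes, arrays correlated at 0.988 to 0.992 among wild-type, 0.995 to 0.997 among knockout and 0.952 to 0.964 between the groups; genes are not independent replicates. Of all genes, 27.7% were called lower and 21.6% higher in the knockout, where a call is a limma adjusted p under 0.05. Lower genes made up 56.2% of the calls, 67.0% after median centring of each array, and 44.2% in the brighter part of the genes, from the median signal up. All genes had a median log2 fold change of -0.11.

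The thick ascending limb reabsorbs salt without water. The furosemide-sensitive cotransporter NKCC2, encoded by Slc12a1, brings sodium, potassium and chloride in from the lumen, and the potassium channel ROMK, encoded by Kcnj1, returns potassium to it. Barttin, encoded by Bsnd, is needed for chloride to leave the cell on the blood side. The resulting voltage drives calcium and magnesium between the cells, through a pore that includes claudin-16, encoded by Cldn16. Limb cells also secrete uromodulin, encoded by Umod, the most abundant protein of normal urine. In the distal convoluted tubule, the thiazide-sensitive cotransporter NCC, encoded by Slc12a3, takes up sodium and chloride, the channel encoded by Trpm6 takes up magnesium, and parvalbumin, encoded by Pvalb, binds calcium in the cytosol.

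Transcripts of these genes were lower in the knockout, with log2 fold changes from -3.65 for Pvalb to -0.43 for Cldn16. Of the 8 genes, 7 were called lower, none was called higher and 1, Cldn16, was not called, against 27.7% of all genes called lower. In the same 7 genes the knockout values lay wholly below the wild-type values, as they did in 37.1% of all genes. The median log2 fold change of the 8 genes was -1.20, beside -0.11 for all genes. Parvalbumin fell most, 12.5-fold, and NCC next, 3.73-fold by its brightest probe set, while uromodulin, the main secreted product of the limb, fell 1.50-fold. With all probe sets of a gene averaged, Kcnj1 (log2 fold change -1.45) and Bsnd (-1.36) fell more than Slc12a3 (-1.33), so the second place turns, and Pvalb remains first. At least 2-fold lower were 5 of the 8, where 3.39% of all genes were called and at least 2-fold lower. In bulk tissue, fewer cells of a type and less RNA per cell cannot be told apart.

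**Figure D1:**
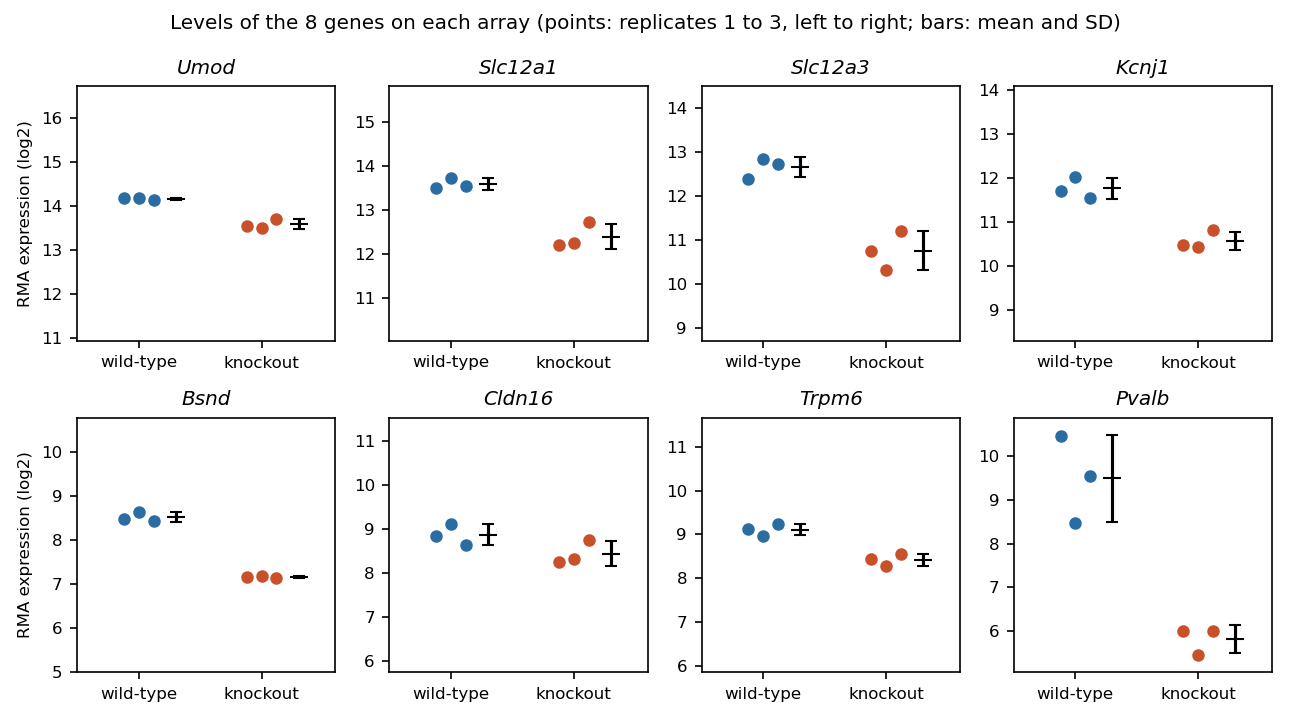
RMA expression on the log2 scale (vertical axes, each spanning the same width) for the 8 genes on the 3 wild-type (blue) and 3 knockout (orange) arrays; points are arrays and the black mark is the mean with its SD. The groups are apart for every gene but Cldn16, and the wild-type points of Pvalb, from 8.47 to 10.44, are the most scattered.

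The DNA before the transcription start is shown for 4 genes: the paired cotransporters of the limb and the convoluted tubule, the magnesium channel, and the gene that fell most. Each run holds the 250 bases before a start in RefSeq on build GRCm38.p6, read along the gene's strand. Slc12a1 lies at chr2:125152350-125152599 (plus strand), Slc12a3 at chr8:94328958-94329207 (plus strand), Trpm6 at chr19:18749480-18749729 (plus strand) and Pvalb at chr15:78206401-78206650 (minus strand). RefSeq lists 2 starts for Pvalb, and the upstream one is shown. Capitals mark matches to the motifs named in the next paragraph.
Slc12a1: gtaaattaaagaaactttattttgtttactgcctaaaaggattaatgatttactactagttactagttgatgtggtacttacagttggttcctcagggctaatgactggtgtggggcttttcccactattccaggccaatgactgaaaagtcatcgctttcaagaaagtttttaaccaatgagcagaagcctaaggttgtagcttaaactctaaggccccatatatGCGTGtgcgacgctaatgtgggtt
Slc12a3: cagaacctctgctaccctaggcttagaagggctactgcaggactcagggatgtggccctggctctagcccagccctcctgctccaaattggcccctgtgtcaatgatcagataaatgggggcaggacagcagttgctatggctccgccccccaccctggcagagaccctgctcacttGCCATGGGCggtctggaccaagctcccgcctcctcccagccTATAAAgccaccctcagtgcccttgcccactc
Trpm6: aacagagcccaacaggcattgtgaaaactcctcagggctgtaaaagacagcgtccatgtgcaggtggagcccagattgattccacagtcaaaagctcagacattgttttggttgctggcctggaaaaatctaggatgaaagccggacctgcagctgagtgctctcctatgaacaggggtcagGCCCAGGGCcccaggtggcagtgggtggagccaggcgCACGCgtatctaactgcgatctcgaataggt
Pvalb: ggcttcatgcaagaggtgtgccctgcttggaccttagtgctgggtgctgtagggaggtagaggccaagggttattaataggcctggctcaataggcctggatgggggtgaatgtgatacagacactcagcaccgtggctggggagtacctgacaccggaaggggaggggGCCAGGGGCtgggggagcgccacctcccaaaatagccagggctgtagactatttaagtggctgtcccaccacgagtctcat

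Here 5 motifs were searched on both strands in 32851 promoter entries of this length, and 7 of the 8 genes had an entry (all but Bsnd). The TATA box letters TATAAA stood 32 bases before the start of Slc12a3 and in no other of the 7, beside 12.4% of all promoters. The letters GCCNNNGGC, the core bound by AP-2 factors such as TFAP2B of the distal tubule, were found in Slc12a3, Trpm6 and Pvalb, the 3 convoluted tubule genes, and in 13.7% of all promoters. No overlap between motifs was found in the 4 runs shown. The oestrogen-related receptor letters TCAAGGTCA matched none of the 7, beside 0.387% of all promoters. Of the hypoxia-response letters, bound by HIF factors, ACGTG matched none of the 7, beside 16.6% of all promoters. The form GCGTG, in 28.2% of all promoters, was found in Slc12a1, 24 bases before its start, in Kcnj1, in Trpm6 and at the downstream start of Pvalb. A match describes letters in this window, not a bound site.

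Among the salt carriers of the thick limb, Slc12a1 read 13.50, 13.74 and 13.56 in wild-type replicates 1, 2 and 3, and 12.21, 12.26 and 12.72 in knockout replicates 1, 2 and 3. The groups did not overlap, and knockout 3 came closest to the wild-type values. NKCC2 transcript was thus 2.30-fold lower (log2 fold change -1.20, SE 0.15, limma adjusted p = 0.000601). A second, dim probe set of Slc12a1, at the 24.5 percentile of signal over all probe sets, read 5.08 ± 0.36 on the wild-type arrays and 4.28 ± 0.14 on the knockout arrays (SD, n = 3 each). Its log2 fold change was -0.80 (limma adjusted p = 0.00830 over all probe sets), the same direction with a smaller size.

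By its brightest probe set, Kcnj1 changed by a size close to that of Slc12a1. It read 11.72, 12.02 and 11.56 in the wild-type and 10.47, 10.44 and 10.81 in the knockout replicates, again with no overlap and with knockout 3 the highest of its group. ROMK transcript was 2.29-fold lower (log2 fold change -1.19, SE 0.15, limma adjusted p = 0.000645). Its other probe set gave a larger fall, with 10.73 ± 0.17 on the wild-type arrays and 9.03 ± 0.39 on the knockout arrays (SD, n = 3 each), 3.25-fold (limma adjusted p = 0.000363 over all probe sets). The size of the ROMK change thus differs between its probe sets, and its direction does not.

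Bsnd separated the groups cleanly. The wild-type values were 8.46, 8.63 and 8.43, and the knockout values 7.15, 7.17 and 7.12, which differ by only 0.04 from lowest to highest. Barttin transcript was 2.57-fold lower (log2 fold change -1.36, SE 0.09, limma adjusted p = 3.69e-05), and the gap between the groups, 1.27 on the log2 scale, was wider than the wild-type range of 0.20. A single probe set measures this gene.

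Umod had little spread and a modest fall. Its wild-type values were 14.17, 14.19 and 14.14, and its knockout values 13.53, 13.50 and 13.71. Uromodulin transcript was 1.50-fold lower (log2 fold change -0.58, SE 0.09, limma adjusted p = 0.00140), and its other probe set was 1.61-fold lower (limma adjusted p = 0.00212 over all probe sets). Both stood above the 99 percentile of signal, with array maxima of 14.58 to 14.82, and whether the array is near its ceiling there was not tested.

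Cldn16 was the only 1 of the 8 that was not called. It read 8.85, 9.11 and 8.63 in the wild-type and 8.24, 8.31 and 8.75 in the knockout replicates. Knockout 3 lay inside the wild-type range, above wild-type 3. The log2 fold change was -0.43 with SE 0.17, a 95% interval of -0.82 to -0.04 and limma adjusted p = 0.0677. Without knockout 3 it was -0.59 (limma adjusted p = 0.0253) and without wild-type 3 it was -0.55 (limma adjusted p = 0.0447), and both values are calls. Over the 14 alternatives the log2 fold change ran from -0.59 to -0.31 and the adjusted p from 0.0253 to 0.199.

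In the distal convoluted tubule, Slc12a3 read 12.40, 12.85 and 12.73 in the wild-type and 10.74, 10.32 and 11.21 in the knockout replicates. The groups were 1.19 apart at their closest, and the knockout values were the more scattered. NCC transcript was 3.73-fold lower (log2 fold change -1.90, SE 0.22, limma adjusted p = 0.000452). The second probe set of Slc12a3, at the 31.5 percentile of signal, read 5.45 ± 0.10 (SD, n = 3) and 4.69 ± 0.06 (SD, n = 3), a 1.69-fold fall (limma adjusted p = 0.000488 over all probe sets). Dim probe sets give compressed folds under RMA, and whether that sets this smaller size was not tested.

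Pvalb, which marks the early convoluted tubule, fell by far the most. It read 10.44, 8.47 and 9.53 in the wild-type and 6.02, 5.47 and 6.02 in the knockout replicates. The wild-type values spanned 1.96 on the log2 scale, yet even the lowest, wild-type 2, stood 2.45 above the highest knockout value. The log2 fold change was -3.65 (SE 0.44, limma adjusted p = 0.000527), with -3.17 without wild-type 1 and -4.15 without wild-type 2. Only 0.0440% of all genes had a log2 fold change this low or lower. The knockout values lay below the medians of those arrays, 6.24 to 6.25, and above their lower quartiles, 4.62 to 4.65. Whether background signal limits the size of this fall was not tested. A single probe set measures this gene.

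Trpm6 fell less than either. The wild-type values were 9.12, 8.98 and 9.24 and the knockout values 8.45, 8.28 and 8.55, with no overlap. The transcript of the magnesium channel was 1.61-fold lower (log2 fold change -0.69, SE 0.11, limma adjusted p = 0.00172). Its second probe set gave a like size, 1.59-fold lower (limma adjusted p = 0.00544 over all probe sets).

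Of the 13 probe sets of the 8 genes, 12 were called lower when all probe sets were fitted together, against 23.3% of all probe sets. All 5 probe sets other than the brightest of their gene were among the 12.

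**Figure D2:**
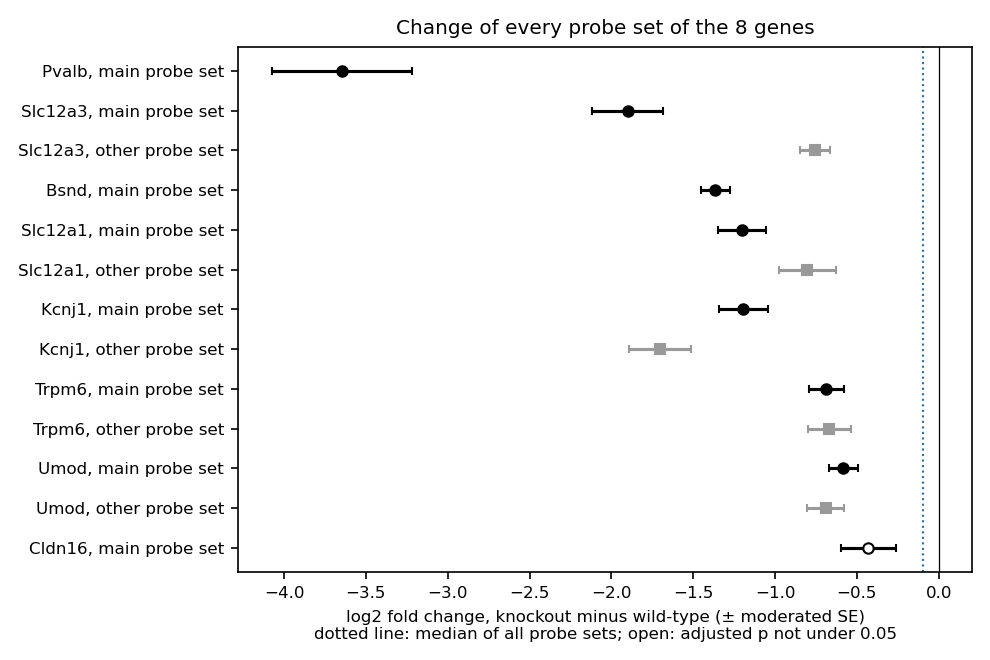
Log2 fold change, knockout minus wild-type, with its moderated SE, for each of the 13 probe sets; black circles are the brightest probe set of a gene, grey squares the other one, and the open circle is not called. All 13 lie below 0, from Pvalb at -3.65 to Cldn16 at -0.43, and the probe sets of Slc12a3 and Kcnj1 differ in size.

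How far the genes fell relative to each other was measured within arrays. The log2 difference between a pair of genes within each array was compared between the groups for all 28 pairs, with an exact permutation test, two-sided. With 3 arrays against 3 the smallest p is 0.1, so no pair can pass 0.05, and the smallest value adjusted over the 28 pairs was 0.133. In 21 of the 28 pairs the groups did not overlap, against 60.3% of all pairs of genes. The 28 pairs share genes and are not independent, and every pair that includes Pvalb was among the 21. The 2 shares therefore cannot decide whether these genes differ among themselves more than other genes do. The cotransporters were such a pair: the difference Slc12a1 minus Slc12a3 was 0.94 ± 0.14 on the wild-type arrays and 1.64 ± 0.26 on the knockout arrays (SD, n = 3 each) (exact permutation p = 0.1), a 1.62-fold larger fall of NCC than of NKCC2 by the brightest probe sets, not called. That order turns with the probe set: the other probe set of Slc12a3 (log2 fold change -0.76) fell less than either of Slc12a1 (-1.20 and -0.80), and averaging the probe sets of each gene gave a 1.25-fold larger fall of NCC.

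The fall of parvalbumin was 3.35-fold larger than that of its neighbour NCC (exact permutation p = 0.1), and that of NCC 2.32-fold larger than that of Trpm6 (exact permutation p = 0.1), both without overlap. Slc12a3 minus Pvalb was widely spread on the wild-type arrays, at 3.18 ± 1.21, beside 4.92 ± 0.24 on the knockout arrays (SD, n = 3 each). Over the probe sets of Slc12a3 and Trpm6, however, the log2 difference ran from -1.23 to -0.07, with no overlap in 2 of 4 combinations, and Pvalb against either probe set of Slc12a3 differed by 1.75 to 2.89. In the limb, the difference between Slc12a1 and Kcnj1 was 1.83 ± 0.15 on the wild-type arrays and 1.82 ± 0.09 on the knockout arrays (SD, n = 3 each), overlapping (exact permutation p = 1). With probe sets averaged, the fall of Kcnj1 was 1.36-fold larger than that of Slc12a1, without overlap. The ratio of Cldn16 to Slc12a1 was 1.71-fold higher in the knockout and that of Umod to Slc12a1 1.53-fold higher, both without overlap (exact permutation p = 0.1 each), and with probe sets averaged these were 1.49-fold and 1.29-fold. These combinations of probe sets were added after seeing the data. Of the 25 pairs with several combinations, 6 changed direction in at least 1 of them. With probe sets averaged, 4 pairs changed direction. Again 21 of the 28 pairs did not overlap, but they were not all the same pairs. For example, Slc12a1 with Kcnj1 came apart, and Slc12a3 with Kcnj1 came to overlap. Among the knockout arrays, with the brightest probe sets, Slc12a1 minus Cldn16 hardly varied, at 3.96 ± 0.01 (SD, n = 3). The differences of Cldn16 from Umod and from Trpm6 overlapped between the groups (exact permutation p = 0.4 each).

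Within each group the genes varied together in part. Knockout 3 held the highest knockout value of 7 of the 8 genes, all but Bsnd, and knockout 2 the lowest of 5. Wild-type 2 held the highest wild-type value of 6 genes, among them Slc12a1, Slc12a3, Kcnj1 and Cldn16. The same array was the lowest for Trpm6 and Pvalb, so wild-type 2 was highest in NCC and lowest in parvalbumin. Averaged over the 8 genes, the level was 10.98 to 11.08 on the wild-type arrays and 9.47, 9.60 and 9.86 on knockout 2, 1 and 3. This order is not particular to the 8 genes. Of the lists described below, proximal tubule markers averaged 10.58, 10.73 and 10.86 on knockout 2, 1 and 3, and salt transport partners 10.35, 10.46 and 10.68. Principal cell markers had another order, at 9.40, 9.02 and 9.54. The share of all genes with this order was not counted.

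**Figure D3:**
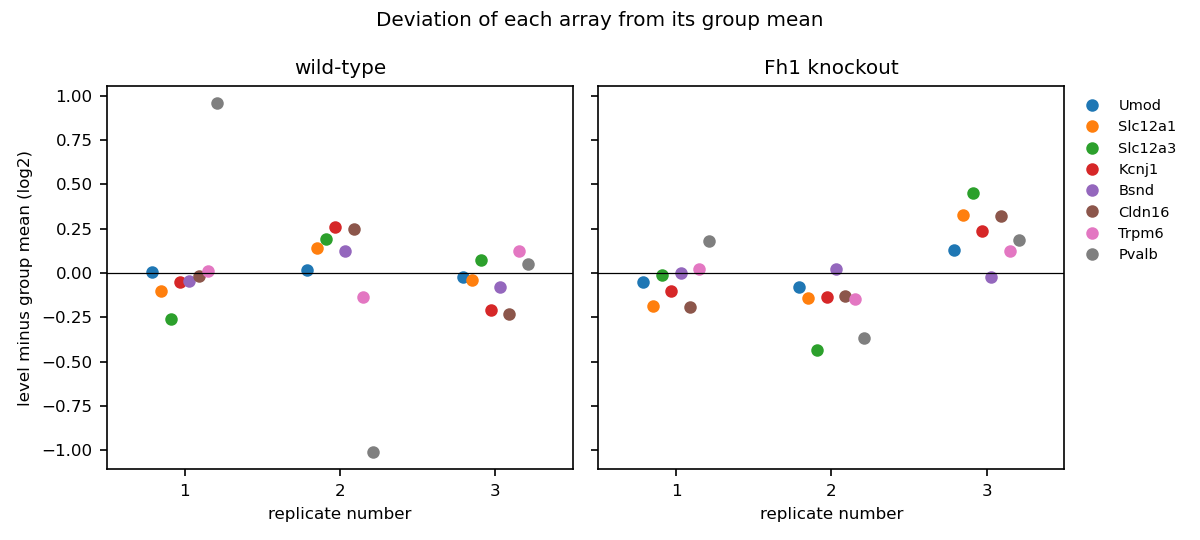
Level of each of the 8 genes minus its group mean (vertical axis, log2) on replicates 1 to 3 of the wild-type (left) and knockout (right) groups; points are genes, offset sideways by gene. Knockout 3 lies above the group mean for every gene but Bsnd, and Pvalb is widely spread among wild-type arrays.

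Other genes of these segments were taken from lists by role, and relatives of the cotransporters from a list by family. Genes on these lists are not confined to these segments. Of the 5 measured partners in salt transport, all 5 were called lower (27.7% of all genes were), with a list median of -0.74. Slc9a3, the sodium-proton exchanger NHE3 of the limb and the proximal tubule, fell most, from 9.18, 9.10 and 9.20 in the wild-type to 6.77, 6.41 and 7.14 in the knockout replicates. It was 5.23-fold lower (limma adjusted p = 5.67e-05), and averaged over its probe sets its log2 fold change was -1.45 in place of -2.39. Kcnj10, the potassium channel subunit of the blood side of the convoluted tubule, fell 1.68-fold, and Fxyd2 1.67-fold. Their adjusted p by limma was 0.00362 and 0.000370.

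Kinases of the cotransporters and their regulators were lower in part. Of 12 measured genes of this list, 5 were called lower and none higher, beside 27.7% and 21.6% of all genes. The list median was -0.02, beside -0.11 for all genes. Ppp1r1a, an inhibitor of protein phosphatase 1, fell 4.89-fold (limma adjusted p = 0.000105), from 10.93, 11.27 and 10.89 to 8.63, 8.43 and 9.15. Wnk4, a kinase that acts upstream of NCC, fell 1.61-fold (limma adjusted p = 0.00948). Stk39, the kinase SPAK that phosphorylates both cotransporters, was not called (log2 fold change 0.30, SE 0.13, limma adjusted p = 0.0893). It is named after its values were seen, and it was called higher without wild-type 2 and with array weights. Sgk1, an aldosterone-induced kinase, had a log2 fold change of -0.88 (limma adjusted p = 0.0465), but wild-type 3 at 9.94 lay inside the knockout range of 9.80 to 9.95. Leaving out wild-type 1, wild-type 2 or any knockout array ended that call, with log2 fold changes of -0.92 to -0.60, as did a trended robust prior and testing brighter genes only (-0.88 in each).

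Calcium and magnesium genes split. Of 13 measured, 8 were called lower and 3 higher, beside 27.7% and 21.6% of all genes, with a median of -0.31. Egf, whose product stimulates magnesium uptake by TRPM6, fell from 13.32, 13.53 and 13.36 to 10.49, 8.83 and 10.07, which is 12.2-fold (limma adjusted p = 0.000257). Slc8a1, the sodium-calcium exchanger of the distal tubule, fell 2.96-fold (limma adjusted p = 0.00311), and Casr, the calcium-sensing receptor of the limb, 1.89-fold (limma adjusted p = 0.00177). Slc41a1, a magnesium transporter, was 1.46-fold higher (limma adjusted p = 0.000800), but its log2 fold change averaged over its probe sets was 0.08 and not called.

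Among the claudins of the limb, named after their values were seen, Cldn10 fell 1.64-fold (limma adjusted p = 0.00207). It was measured by gene, and its isoforms were not told apart. Cldn19, the partner of claudin-16, had a log2 fold change of 0.03 (95% interval -0.27 to 0.34, limma adjusted p = 0.841). Cldn14, which blocks the claudin-16 pore, had 0.06 (95% interval -0.13 to 0.25, limma adjusted p = 0.533) at the 29.2 percentile of signal over genes. Neither of these was called, as Cldn16 was not.

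Transcription regulators listed for the distal segments, though not confined to them, were mostly called lower, 6 of 10 measured, with 1 higher and a median of -0.50. Of all genes, 27.7% were called lower and 21.6% higher. Emx1, a homeobox gene, fell 1.90-fold (limma adjusted p = 0.000226). The orphan nuclear receptor Esrrg fell 1.76-fold (limma adjusted p = 0.000399) and Ppargc1a, the coactivator of mitochondrial biogenesis, 1.75-fold (limma adjusted p = 0.000998). Over the 14 alternatives the log2 fold change of Esrrg ran from -0.91 to -0.28, and Esrrg stayed called lower. Irx3, an Iroquois homeobox gene, rose from 9.71, 9.86 and 9.60 to 10.63, 10.49 and 10.34, 1.69-fold (limma adjusted p = 0.00117). Tfap2b, named after its values were seen, was not called (log2 fold change -0.32, SE 0.15, limma adjusted p = 0.107), and it was called lower with median centring.

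Of 9 other genes of the limb and distal tubule, 6 were called lower (27.7% of all genes were) and none higher, with a median of -1.21. Wfdc15b, which encodes a secreted protein with a whey acidic protein domain, fell 8.63-fold (limma adjusted p = 2.30e-05), from 12.58, 12.90 and 12.85 to 9.83, 9.31 and 9.86. Ckb, brain-type creatine kinase, fell 3.02-fold (limma adjusted p = 7.92e-05) and Tmem52b 3.00-fold (limma adjusted p = 0.000817). Other members of the cotransporter family did not move in 1 direction. Of 6 measured, 2 were called higher and 1 lower, beside 21.6% and 27.7% of all genes, with a median of -0.02. Slc12a4 rose 1.48-fold (limma adjusted p = 0.00792). Slc12a2, the broadly expressed cotransporter NKCC1, was 1.35-fold higher (limma adjusted p = 0.0243), and leaving out any 1 knockout array ended that call, with log2 fold changes of 0.41 to 0.45, as did averaging its probe sets (0.30, limma adjusted p = 0.0606). Slc12a8, at the 16.1 percentile of signal over genes, was 1.23-fold lower (limma adjusted p = 0.0153), a call that ended without knockout 2 or 3 (log2 fold change -0.29 in each) and under quantile normalisation (-0.19, limma adjusted p = 0.0947).

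**Figure D4:**
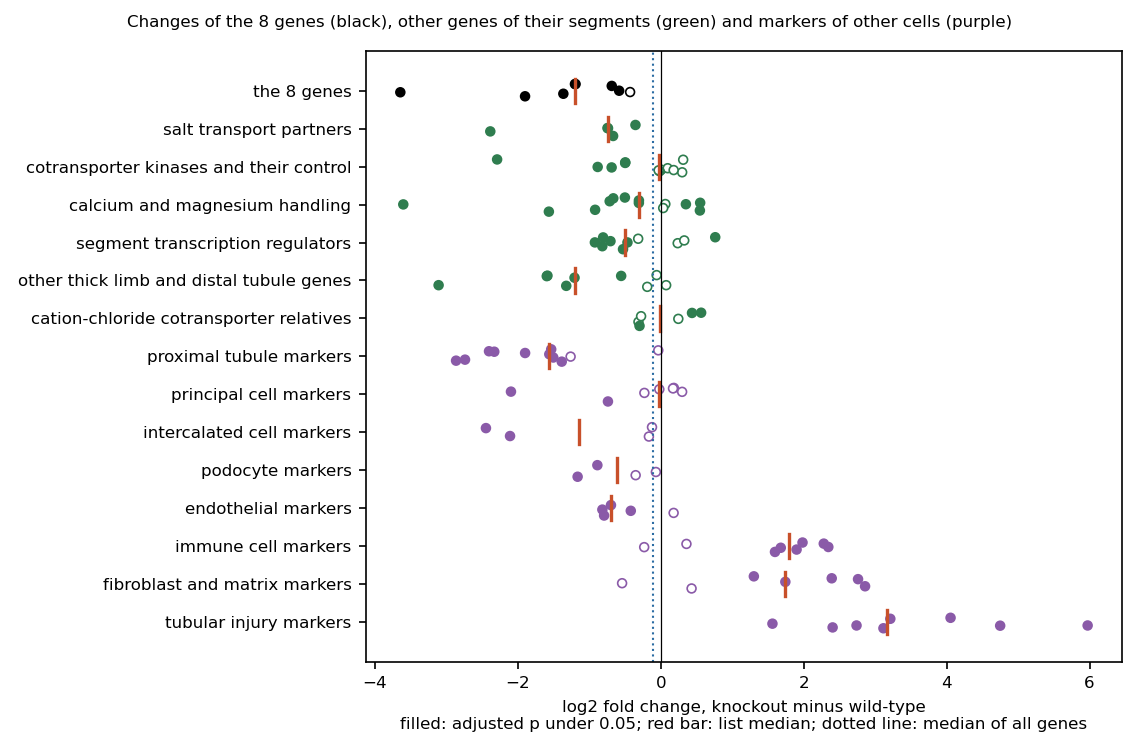
Log2 fold change, knockout minus wild-type, for the 8 genes (black) and markers of other cells (purple). Green marks other genes of their segments by role and also the cotransporter relatives, which were chosen by family and not by segment. Each point is a gene, filled where called. Red bars are list medians and the dotted line is the median of all genes, -0.11. The 8 genes have a median of -1.20, between those of the cotransporter relatives, -0.02, and the proximal tubule, -1.56.

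Markers of several other cell types differed between the groups, and their counts are read against the 27.7% of all genes called lower and 21.6% called higher. Proximal tubule markers were called lower in 9 of 11 genes (median -1.56), and their mean level was 12.3 to 12.6 on wild-type and 10.6 to 10.9 on knockout arrays. Of 7 principal cell genes of the collecting duct 2 were called lower, a share near that of all genes (median -0.02, mean level 9.58 to 9.75 and 9.02 to 9.54). Aqp3, 1 of the 2, kept its call in 10 of 14 alternatives. The other, Aqp4, fell 4.28-fold (limma adjusted p = 4.73e-05) and kept its call in all 14. Of 4 intercalated cell genes 2 were lower (median -1.14; 9.09 to 9.60 and 8.03 to 8.11). Of podocyte markers 2 of 4 were lower (median -0.62; 7.91 to 8.19 and 7.34 to 7.52), and of endothelial markers 4 of 5 (median -0.70; 8.57 to 8.88 and 8.06 to 8.30). Immune markers were higher in 6 of 8 genes (median 1.79; mean level 7.82 to 8.18 and 9.34 to 9.64). Fibroblast and matrix markers were higher in 5 of 7 (median 1.74; 8.65 to 8.76 and 9.78 to 10.7), and tubular injury markers in 8 of 8 (median 3.16; 7.39 to 8.20 and 11.3 to 11.4). RMA values have no zero, so absence of a marker cannot be read from them. The part of these shifts in the falls of the 8 genes was not tested.

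The genes whose pattern over the 6 arrays was nearest to the average of the 8 genes were Shd, Fbp1, Tmem64, Guca2b and Slc22a5. Likeness was the Euclidean distance between log2 values, each gene centred on its own mean, and it ran from 0.14 for Shd to 0.22 for Slc22a5. Their log2 fold changes were -1.28, -1.27, -1.37, -1.29 and -1.48 in that order, a size that follows from choosing them by this distance. On wild-type 1 the average was drawn up by Pvalb, at 2.78 above its own mean, beside 0.20 to 0.69 for the other genes. Fbp1, fructose-bisphosphatase of gluconeogenesis, and Slc22a5, the carnitine transporter, are best known from the proximal tubule.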

How the data were processed

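The authors deposited 1 table of RMA expression values, per the submitters' processing notes, for 45101 probe sets on 6 arrays. The log2 scale of the deposited values was read from their range. The RMA version, chip definition and build were not given in the sources used here. Background correction, normalisation between arrays and summary of the probes are parts of RMA. It makes no detection call, and it compresses the folds of dim genes. Arrays have no counting depth, and 3 arrays per group limit the precision.

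The platform annotation named the probe sets, with symbols updated by Entrez identifier (34741 of the 34945 with 1 gene); 932 with several genes and 9160 with none were left out. The fit used limma 3.58.1 in R 4.3.3 (lmFit, eBayes), two-sided, without covariates or filter, adjusted by Benjamini-Hochberg over 18193 genes, or over all probe sets where stated. The script was tested on simulated data. Member pairs were tested exactly with scipy 1.17.1 in Python 3.11.15. From each list of segment genes or cotransporter relatives, the text names the 3 called genes that changed most. It also names the called gene that changed most in the opposite direction and, for likeness, the 5 nearest genes. Others are said to be named after their values were seen. The genes, lists and motifs were chosen with earlier results of these data known, and other motifs searched are not reported here. As 14 alternatives, the fit was repeated with all probe sets of a gene averaged, with brighter genes only (mean signal from the median up), a trended robust prior, median centring, quantile normalisation, array weights, a replicate block, every probe set tested, and each array left out.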

Additional observations from a re-analysis of the deposited data

How the results depend on the processing

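Umod, Slc12a1, Slc12a3, Kcnj1, Bsnd, Trpm6 and Pvalb stayed lower and called under all 14 alternatives, and Cldn16 stayed lower. Cldn16 was also called with median centring (log2 fold change -0.51), quantile normalisation (-0.54) and array weights (-0.50), and its log2 fold change ran from -0.59 to -0.31 over the arrays left out, so that 7 to 8 of the 8 genes were called. The cause was not tested.

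With the mean of all probe sets, calcium and magnesium genes had 5 lower and 1 higher, the kinase list 1 higher and the cotransporter relatives 2 lower. The relatives had 1 higher and 0 lower among brighter genes, where fewer genes are tested, and 2 lower with median centring. Array weights gave 1 kinase gene and 2 regulators higher. With 1 array left out, the kinase list had 0 to 1 higher (1 without wild-type 1 and 1 without wild-type 2), the regulators 1 to 2 higher (2 without wild-type 2), and the relatives 1 to 2 higher and 0 to 2 lower. The relatives had 0 lower without knockout 2 or knockout 3, and 2 without wild-type 2.

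Over all genes, 5031 were lower and 3928 higher. Lower genes numbered 2334 among brighter genes and 3160 to 4810 with 1 array left out (3160 without knockout 1, 3279 without knockout 3). Over all 45101 probe sets, 10522 were lower and 9271 higher. Same-numbered arrays did not deviate together (correlations of -0.10, -0.13 and -0.13). With 3 arrays per group, these correlations cannot decide whether same-numbered samples were paired. A replicate block gave 3930 genes lower, 3510 higher and 7 of the 8 genes lower.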
